A study of Mus musculus with 6 samples.

Results

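The glucose control points described here are the transcripts of 7 genes of glucose entry and of control steps in glycolysis and gluconeogenesis in mouse liver. The genes are Slc2a2, Gckr, Pfkl, Pfkfb1, Pfkfb3, Fbp1 and Pklr. They were picked by name for their place in the pathway, with earlier results of these data known. The names were matched to the symbol column of an expression table of 10947 named genes. All 7 were found, all 7 passed the filter on low values, and a gene with several RefSeq transcripts was represented by the transcript with the highest mean over all libraries. The study sequenced messenger RNA of frozen liver from wild-type male C57BL/6J mice, 8 weeks old, in 6 libraries. The refed group, libraries 5, 7 and 8, fasted for 12 h from 10 am and then ate a high sucrose diet (69% sucrose, 10% fat) for 12 h from 10 pm. The fasted group, libraries 1, 3 and 4, went without food for 12 h from 10 pm. All mice were killed at 10 am, so both groups share the clock hour. The comparison asks how transcript levels after a night of sucrose feeding differ from those after a night of fasting. Levels are RPKM, reads divided by transcript length and by a library total that is not stated. They put genes of unlike length and libraries of unlike depth on a shared scale, but some calls depended on further scaling, as given below.

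In the liver, glucose crosses the membrane through GLUT2, the product of Slc2a2, and is trapped by glucokinase, which the nuclear regulatory protein encoded by Gckr binds and inhibits during fasting. Flux then meets the opposed pair of phosphofructokinase-1, whose liver subunit is Pfkl, and fructose-1,6-bisphosphatase, encoded by Fbp1. Their balance is set by fructose 2,6-bisphosphate, which the bifunctional enzymes Pfkfb1 and Pfkfb3 make and degrade, and the last control point is pyruvate kinase, whose liver form comes from Pklr. Fructose from sucrose enters below phosphofructokinase, and fructose 1-phosphate releases glucokinase from its regulatory protein.

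The libraries held between 26237934 and 33219013 reads in the genes that the authors called, which is part of their depth. In a principal component analysis of the 1000 genes with the largest variance, component 1 (82.0% of variance) split refed from fasted libraries. On component 2 (8.95%), fasted 1 stood at 16.2, apart from fasted 3 at -7.78 and fasted 4 at -9.02. Some of the results are therefore also given without fasted 1. Hepatocyte markers led by Alb summed to between 43080 and 46272 RPKM in refed libraries and to between 42143 and 50233 RPKM in fasted libraries. In the limma test given below, 3 of these 6 genes, Apob, Cps1 and Hnf4a, were called lower in refed liver. The share called lower over all genes tested was 15.7%. Alb, Ttr and Apoa1 did not pass, at log2 fold changes of 0.05, 0.09 and -0.38 (limma adjusted p = 0.83, 0.62 and 0.052). No marker of lymphocytes, pancreatic acinar cells or skeletal muscle was in the table. In bulk tissue, fewer cells of a type and less RNA per cell cannot be told apart.

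Of the 7 genes, 6 were higher in refed liver and none was lower at a Benjamini-Hochberg adjusted p of 0.05 in limma, a linear model with moderated variances fitted to log2(RPKM + 1) of all genes. Among the 10890 genes tested, 26.4% were called higher and 15.7% lower, 42.2% in all. When each library was centred on its own median, 20.1% of all genes were called higher and 20.8% lower, with TMM factors 19.8% and 21.4%, and with quantile normalization 19.9% and 21%. The 6 higher genes passed under that centring and under all of the other 14 alternative settings. The median log2 fold change was 0.82 for the 7 genes and 0.10 for all genes tested. Because the 7 genes were chosen with earlier results of these data known, these contrasts with all genes are descriptions, not tests. Values of the groups did not overlap for any of the 7 genes, with 6 higher and 1 lower. Across all genes tested, 34.8% did not overlap and were higher in refed liver, 20.6% were lower, 55.4% together. Pklr stood far from the rest with a 21.5-fold rise, while the other 5 rises lay between 1.47-fold and 1.93-fold. Without fasted 1 the log2 fold changes of these 6 genes ranged from 0.63 for Slc2a2 to 4.27 for Pklr, and all 6 passed.

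**Figure D1:**
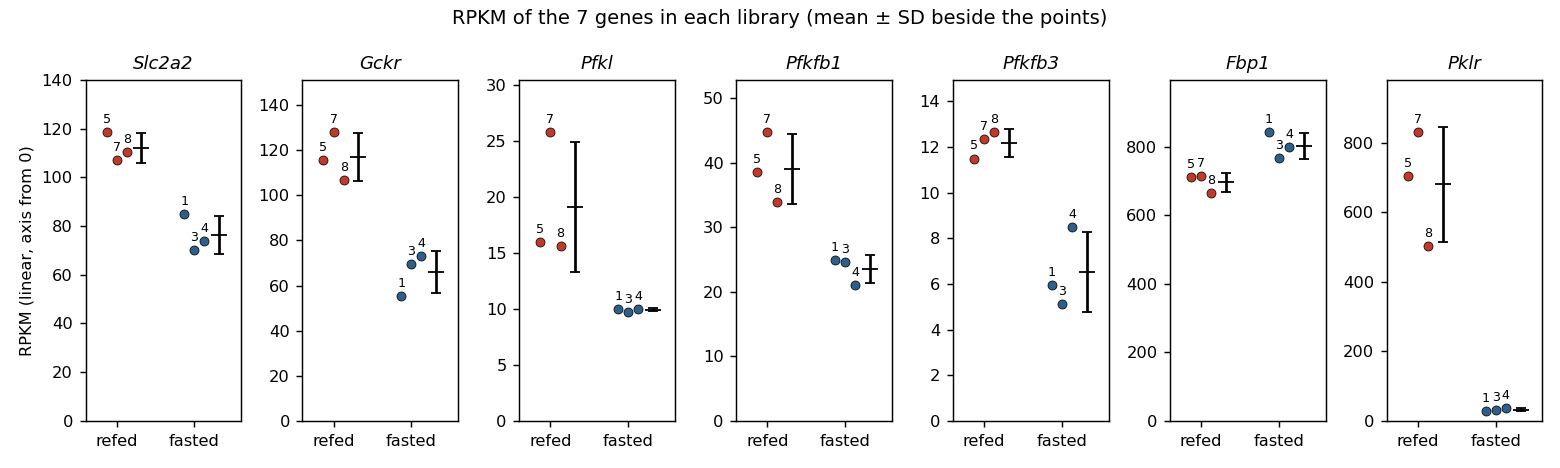
RPKM of each of the 7 genes on a linear axis from 0, with 1 point per library (numbered as in the labels), refed left of fasted, and the mean ± SD of 3 libraries beside the points. The refed Pklr libraries sit between 504 and 831 RPKM, the fasted ones between 27.4 and 36.0 RPKM, and Fbp1 alone is lower in all refed libraries than in all fasted ones.

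Glucose entry came first in this order. Slc2a2 had 119, 107 and 110 RPKM in refed 5, 7 and 8, against 84.8, 70.0 and 73.9 RPKM in fasted 1, 3 and 4. All refed libraries lay above all fasted ones, and within the fasted group library 1 was the highest. The transporter transcript averaged 112 ± 6.07 RPKM in refed liver and 76.2 ± 7.67 RPKM in fasted liver (SD, n = 3 each), a 1.47-fold rise (log2 fold change 0.55 ± 0.10 SE, limma adjusted p = 0.0031). The authors' deposited table lists a log2 fold change of 0.37 for Slc2a2 with a false discovery rate of 0.0050, and places it in mm9 on chromosome 3 (28596825 to 28627278, plus strand). The intervals of this table run over exons and introns, here and for the genes that follow, and need not reach every annotated start. Slc2a2 was the dominant glucose transporter transcript in both states. It made up 83.9% ± 1.21 of the summed RPKM of 5 measured facilitative transporter genes (Slc2a1, Slc2a2, Slc2a4, Slc2a8 and Slc2a9) in refed liver and 75.3% ± 1.03 in fasted liver (SD, n = 3 each). The shares did not overlap, and the two-sided exact permutation test gave p = 0.1, the smallest that 3 libraries against 3 allow (0.13 adjusted over 4 shares).

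Among the other genes of glucose entry and first phosphorylation, fixed as a list of 11, 5 were measured, with 1 higher, 1 lower and 3 that did not pass, near the 42.2% called over all genes. Slc2a1, the widely expressed transporter GLUT1, fell to 1.87 ± 0.527 RPKM in refed liver, against 6.64 ± 1.45 RPKM in fasted liver (SD, n = 3 each; log2 fold change -1.41 ± 0.18 SE, limma adjusted p = 0.00068). Slc2a4, the insulin-regulated transporter GLUT4 best known from muscle and fat, had 2.52, 7.44 and 1.75 RPKM in refed 5, 7 and 8, against 0.00642, 0.0377 and 0.0604 RPKM in fasted 1, 3 and 4. It rose (log2 fold change 2.07 ± 0.36 SE, limma adjusted p = 0.0030), a value that the added 1 RPKM understates. Of 4 adipocyte markers 1 was in the table, Cfd, at 0.224 to 0.415 RPKM in refed and 0.412 to 1.21 RPKM in fasted libraries. Slc2a8 and Slc2a9 had log2 fold changes of -0.21 each (limma adjusted p = 0.33 and 0.22), and Hk3, a hexokinase gene, one of 0.25 (limma adjusted p = 0.23).

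Gckr had 116, 128 and 107 RPKM in refed 5, 7 and 8, against 55.4, 69.7 and 73.1 RPKM in fasted 1, 3 and 4. Every refed library exceeded every fasted one, and fasted 1 was the lowest of all. The transcript of the glucokinase regulatory protein averaged 117 ± 10.7 RPKM in refed and 66.1 ± 9.39 RPKM in fasted liver (SD, n = 3 each), a 1.77-fold rise (log2 fold change 0.82 ± 0.12 SE, limma adjusted p = 0.0016). Without fasted 1 the log2 fold change was 0.70 ± 0.10 SE (limma adjusted p = 0.0028). The authors' deposited table lists a log2 fold change of 0.85 with a false discovery rate of 4.5e-09, and places Gckr in mm9 on chromosome 5 (31599954 to 31629673, plus strand). Slc2a2 and Gckr stood at similar levels per length. The log2 ratio of Slc2a2 to Gckr, taken like all log2 ratios here on RPKM + 1, was -0.06 ± 0.17 in refed and 0.21 ± 0.34 in fasted libraries (SD, n = 3 each), a difference of -0.27 (two-sided exact permutation p = 0.6, 0.7 adjusted over 6 ratios), in a test that cannot go below 0.1. The linear ratio was 1.53 in fasted 1, above all other libraries, and the difference was -0.07 without fasted 1 and -0.17 without refed 7.

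At the phosphofructokinase step, Pfkl had 16.0, 25.8 and 15.6 RPKM in refed 5, 7 and 8, against 10.0, 9.77 and 9.96 RPKM in fasted 1, 3 and 4. The fasted libraries were nearly identical, and refed 7 stood well above the other refed libraries. Means were 19.2 ± 5.80 RPKM in refed and 9.93 ± 0.141 RPKM in fasted liver (SD, n = 3 each), a 1.93-fold rise (log2 fold change 0.85 ± 0.17 SE, limma adjusted p = 0.0064). Without refed 7 the log2 fold change was 0.62 ± 0.09 SE (limma adjusted p = 0.0023). In the authors' deposited table Pfkl has 3470, 6347 and 3147 reads in refed 5, 7 and 8, against 2092, 2076 and 1989 reads in fasted 1, 3 and 4, so refed 7 is also the highest in reads. That table lists a log2 fold change of 0.84 with a false discovery rate of 5.7e-05, and an mm9 interval on chromosome 10 (77449692 to 77472828, minus strand).

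Pfkm, the muscle-type subunit gene, did not pass. It averaged 7.23 ± 0.705 RPKM in refed and 7.03 ± 0.680 RPKM in fasted liver (SD, n = 3 each; log2 fold change 0.03 ± 0.10 SE, limma adjusted p = 0.81, 95% interval from -0.20 to 0.27), and the sign turned in 5 of 16 settings. Pfkl made up 67.4%, 77.4% and 70.9% of the summed RPKM of Pfkl and Pfkm in refed 5, 7 and 8, against 61.6%, 57.2% and 57.0% in fasted 1, 3 and 4. The refed shares all lay above the fasted ones, by 13.3 percentage points on average (two-sided exact permutation p = 0.1, the smallest possible, 0.13 adjusted over 4 shares). The log2 ratio of Pfkl to Pfkm was 0.81 higher in refed liver (two-sided exact permutation p = 0.1, 0.15 adjusted over 6 ratios). Pfkp, the platelet-type subunit gene, was not analysed here.

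Pfkfb1 carries the liver form of the bifunctional enzyme, which protein kinase A switches from kinase to phosphatase when glucagon is high. It had 38.5, 44.8 and 33.9 RPKM in refed 5, 7 and 8, against 25.0, 24.6 and 21.0 RPKM in fasted 1, 3 and 4. The refed values all lay above the fasted ones. The means were 39.1 ± 5.44 RPKM in refed and 23.5 ± 2.19 RPKM in fasted liver (SD, n = 3 each), a 1.66-fold rise (log2 fold change 0.70 ± 0.12 SE, limma adjusted p = 0.0026). The authors' deposited table lists a smaller log2 fold change of 0.43 with a false discovery rate of 0.0097, on mm9 chromosome X from 147022772 to 147078421, plus strand.

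Pfkfb3, an inducible isoform in which the kinase activity far outweighs the phosphatase, had 11.5, 12.4 and 12.7 RPKM in refed 5, 7 and 8, against 5.95, 5.14 and 8.49 RPKM in fasted 1, 3 and 4. Refed libraries lay close together, while fasted 4 was above the other fasted libraries. The transcript averaged 12.2 ± 0.609 RPKM in refed and 6.53 ± 1.75 RPKM in fasted liver (SD, n = 3 each), a 1.87-fold rise (log2 fold change 0.83 ± 0.15 SE, limma adjusted p = 0.0038). All 8 RefSeq transcripts of Pfkfb3 in the table carried much the same values, with refed over fasted ratios from 1.87 to 1.89, so its isoforms could not be separated. The authors' deposited table lists a log2 fold change of 0.74 with a false discovery rate of 2.9e-05, on mm9 chromosome 2 from 11393057 to 11423728, minus strand. This interval cannot hold both annotated starts of Pfkfb3, which lie further apart than it is long, at 11502090 and 11553929 in GRCm38.p6. Since Pfkfb3 and Pfkl are also expressed outside hepatocytes, markers of other liver cells are given beside them. Of 5 cholangiocyte markers 3 were higher in refed liver, Krt19, Krt7 and Sox9, against 26.4% higher over all genes tested. Epcam and Spp1 did not pass, at log2 fold changes of 0.04 and -0.09 (limma adjusted p = 0.88 and 0.76). The list summed to between 21.3 and 29.6 RPKM in refed and to between 17.9 and 27 RPKM in fasted libraries. Most of that sum was Spp1, at 15.1 to 22.7 RPKM in refed and 14.3 to 23.8 RPKM in fasted libraries. Krt19 itself stood at 1.91 to 3.23 RPKM in refed and 0.738 to 0.814 RPKM in fasted libraries. The 6 sinusoidal endothelium markers summed to between 40.09 and 46.7 RPKM in refed and to between 36.4 and 39.97 RPKM in fasted libraries. The sums narrowly did not overlap, and 34.8% of all genes tested were higher without overlap. Oit3 alone was called higher. Stab1 and Stab2 had log2 fold changes of -0.06 and -0.16, and Clec4g, Lyve1 and Kdr of 0.13, 0.42 and 0.17. The 6 stellate cell markers summed to between 50.2 and 63.8 RPKM in refed and to between 36.7 and 69.5 RPKM in fasted libraries. Des alone of them was called higher. None of 6 Kupffer cell markers was called. Their sum lay between 37.4 and 40.4 RPKM in refed and, more widely, between 24.2 and 72.9 RPKM in fasted libraries. The part of these cells in the rises of Pfkfb3 and Pfkl was not tested.

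The rises of Pfkfb1 and Pfkfb3 were compared as a ratio within each library. The log2 ratio of Pfkfb3 to Pfkfb1 was -1.60 ± 0.22 in refed and -1.72 ± 0.45 in fasted libraries (SD, n = 3 each), a difference of 0.13 that ran from -0.04 without fasted 3 to 0.38 without fasted 4 when each library was left out in turn (two-sided exact permutation p = 0.7 with all libraries, where 0.1 is the smallest possible, so no difference could pass 0.05). Pfkfb2, the heart-type isoform gene, fell to 3.81 ± 0.263 RPKM in refed liver, against 7 ± 0.860 RPKM in fasted liver (SD, n = 3 each; log2 fold change -0.73 ± 0.10 SE, limma adjusted p = 0.0012). Pfkfb1 held 70.8% ± 3.40 of the summed RPKM of Pfkfb1, Pfkfb2 and Pfkfb3 in refed and 63.5% ± 6.32 in fasted liver (SD, n = 3 each; exact permutation p = 0.2). The difference of 7.26 percentage points dropped to 3.61 without fasted 4 and to 1.94 when the RPKM of all transcripts of each gene were summed. That sum adds 8 Pfkfb3 transcripts of much the same values to 1 of Pfkfb1, so it depends on the number of transcripts listed. Tigar, a bisphosphatase related to the phosphatase domain of these enzymes, rose 1.5-fold (log2 fold change 0.44 ± 0.10 SE, limma adjusted p = 0.0098). Of the list of 6 other isozymes of this step, 3 were measured, with 1 higher, 1 lower and 1 that did not pass. Over all genes tested, 26.4% were called higher and 15.7% lower.

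Fbp1, the gluconeogenic enzyme that opposes phosphofructokinase, did not pass. It had 711, 715 and 665 RPKM in refed 5, 7 and 8, against 844, 767 and 798 RPKM in fasted 1, 3 and 4. All refed libraries lay below all fasted ones, as for 20.6% of all genes tested. Means were 697 ± 27.4 RPKM in refed and 803 ± 38.5 RPKM in fasted liver (SD, n = 3 each), a ratio of 0.868 (log2 fold change -0.20 ± 0.09 SE, limma adjusted p = 0.11, 95% interval from -0.41 to 0.01). The call depended on scaling: Fbp1 passed with library medians aligned (log2 fold change -0.29, limma adjusted p = 0.038) and with TMM factors (-0.32, limma adjusted p = 0.030), while quantile normalization gave -0.04 (limma adjusted p = 0.72). The authors' deposited table calls it, at a log2 fold change of -0.29 and a false discovery rate of 0.018, on mm9 chromosome 13 from 62966113 to 62989642, minus strand. Fbp1 ranked 78th by level among all 10947 genes in both refed and fasted liver. The ratio of Pfkl to Fbp1 transcripts per length was 0.0225, 0.0362 and 0.0235 in refed 5, 7 and 8, against 0.0119, 0.0127 and 0.0125 in fasted 1, 3 and 4. On the log2 scale it was 1.05 higher in refed liver (two-sided exact permutation p = 0.1, the smallest possible, 0.15 adjusted over 6 ratios).

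**Figure D2:**
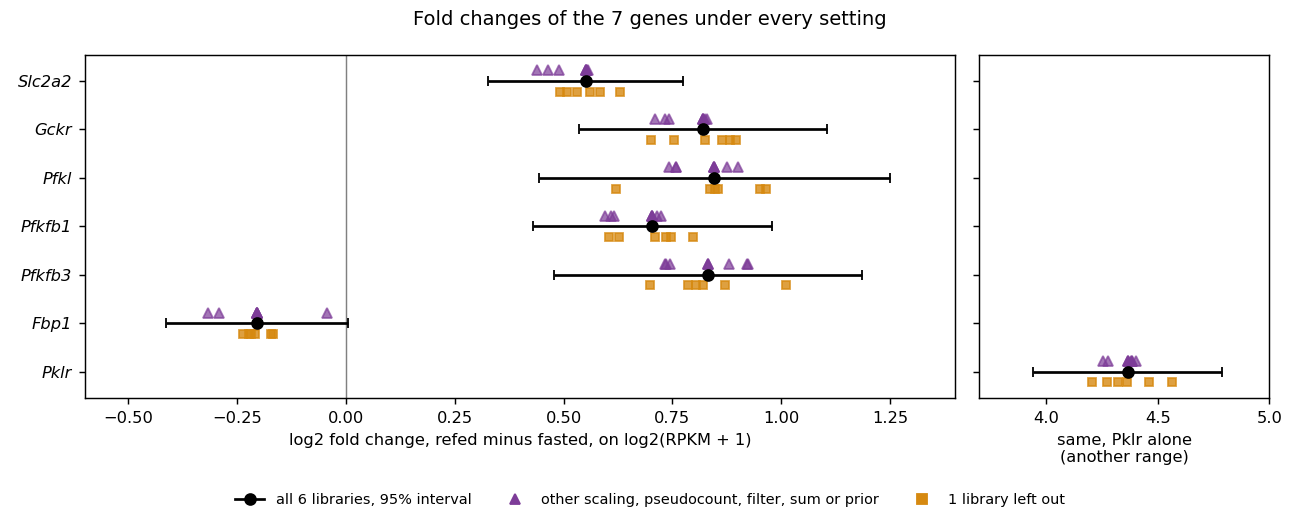
Log2 fold change of each of the 7 genes, refed minus fasted, with its 95% interval (black), the alternative settings of scaling, filter, pseudocount, transcript sum and prior (triangles) and the fits with 1 library left out (squares); Pklr has its own panel with another range. Fbp1 alone has an interval that reaches 0, and its triangles spread from -0.32 to -0.04.

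Pklr had 705, 831 and 504 RPKM in refed 5, 7 and 8, against 27.4, 31.3 and 36.0 RPKM in fasted 1, 3 and 4. The lowest refed library was still far above the highest fasted one. It averaged 680 ± 165 RPKM in refed and 31.6 ± 4.27 RPKM in fasted liver (SD, n = 3 each; log2 fold change 4.36 ± 0.18 SE, limma adjusted p = 5.4e-06), which was rank 11 of 10890 genes by the size of the change. By level it stood 81st of all genes in refed and 1658th in fasted liver. In the authors' deposited table the gene has 114751, 152325 and 74603 reads in refed 5, 7 and 8, against 4211, 4903 and 5318 reads in fasted 1, 3 and 4, a log2 fold change of 4.33 and a false discovery rate listed as 0, on mm9 chromosome 3 from 88940064 to 88950706, plus strand.

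The pyruvate kinase gene has an upstream start used in red cells and a downstream start used in liver. Both RefSeq transcripts were in the table, and their RPKM stayed in a ratio of 1.06 to 1.07 in all 6 libraries, so the table does not separate the starts. The kept transcript, NM_001099779, begins at base 89136572 of chromosome 3 in GENCODE M21, near the downstream start of RefSeq, and NM_013631 begins at base 89136142, at the upstream one. Of 6 erythroid markers 3 were measured, Alas2 and the hemoglobin genes Hba-a1 and Hba-a2. They summed to between 58.1 and 65.0 RPKM in refed and to between 43.6 and 69.8 RPKM in fasted libraries, and none was called. Pkm, the pyruvate kinase gene of most other tissues, rose 1.52-fold but stayed at 3.44 ± 0.223 RPKM in refed and 2.26 ± 0.387 RPKM in fasted liver (SD, n = 3 each; log2 fold change 0.45 ± 0.11 SE, limma adjusted p = 0.013). Pklr therefore held 99.5% ± 0.110 of the summed RPKM of Pklr and Pkm in refed and 93.2% ± 1.85 in fasted liver (SD, n = 3 each; exact permutation p = 0.1, the smallest possible). The difference of 6.29 percentage points was 3.37 when the RPKM of all transcripts of each gene were summed, where 2 Pklr transcripts of much the same values are added. The summed share thus depends on the number of transcripts listed.

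Pyruvate kinase closes a cycle with PEP carboxykinase, whose cytosolic form is Pck1. That transcript had 45.3, 16.6 and 114 RPKM in refed 5, 7 and 8, against 1926, 2229 and 2098 RPKM in fasted 1, 3 and 4. The ratio of Pklr to Pck1 per length was 15.6, 49.9 and 4.43 in refed 5, 7 and 8, against 0.0142, 0.0140 and 0.0171 in fasted 1, 3 and 4. Pklr thus exceeded Pck1 in every refed library and lay below it in every fasted one. The refed library with the most Pklr, refed 7, had the least Pck1, and refed 8 the reverse. On the log2 scale the ratio was 9.88 higher in refed liver (two-sided exact permutation p = 0.1, the smallest possible, 0.15 adjusted over 6 ratios).

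**Figure D3:**
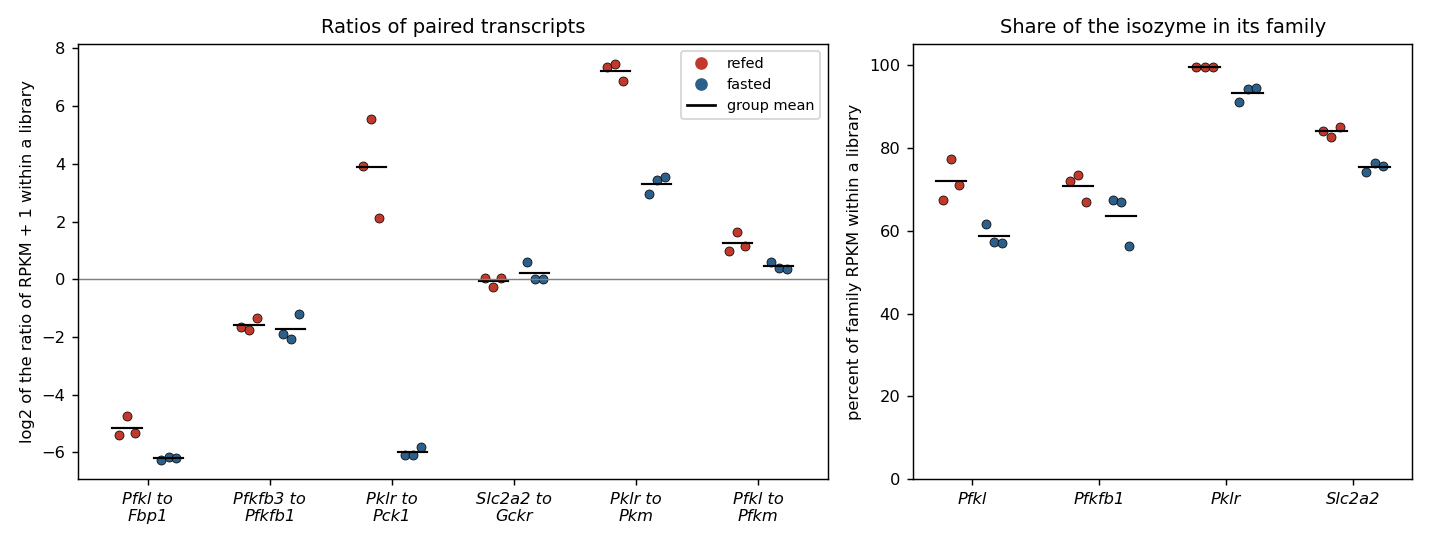
Left, log2 ratio of RPKM + 1 of paired transcripts within each library; right, percent of family RPKM held by the named isozyme; 1 point per library, refed left of fasted, with a bar at the group mean. The Pklr to Pck1 ratio lies above 0 in the 3 refed libraries and near -6.01 in the fasted ones, while the Pfkfb3 to Pfkfb1 and Slc2a2 to Gckr ratios overlap between groups.

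Start windows from RefSeq, 250 bases before to 50 bases after an annotated start in GRCm38.p6, were available for all 7 genes, 12 windows in all. They were searched on both strands for 7 motifs, chosen with the Pklr promoter known. The windows shown are those of the gene with the largest rise, at both of its starts, of Pfkfb3 with its E-box, and of Fbp1, which did not rise. They read 5′ to 3′ along the transcribed strand, and capitals mark matched motifs.
Pklr downstream (liver) start, chr3:89136373-89136672, plus strand: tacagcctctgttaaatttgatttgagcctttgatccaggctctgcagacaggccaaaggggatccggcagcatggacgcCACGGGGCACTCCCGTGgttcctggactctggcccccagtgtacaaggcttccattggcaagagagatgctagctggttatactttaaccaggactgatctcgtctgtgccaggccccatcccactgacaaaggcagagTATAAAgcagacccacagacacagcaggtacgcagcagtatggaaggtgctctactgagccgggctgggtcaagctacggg
Pklr upstream (red cell) start, chr3:89135892-89136191, plus strand: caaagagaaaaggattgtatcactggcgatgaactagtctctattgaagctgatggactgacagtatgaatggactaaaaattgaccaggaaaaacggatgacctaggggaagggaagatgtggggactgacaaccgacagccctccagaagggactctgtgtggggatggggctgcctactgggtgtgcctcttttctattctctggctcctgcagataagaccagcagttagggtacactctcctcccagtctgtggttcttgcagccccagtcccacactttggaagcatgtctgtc
Pfkfb3, chr2:11502041-11502340, minus strand: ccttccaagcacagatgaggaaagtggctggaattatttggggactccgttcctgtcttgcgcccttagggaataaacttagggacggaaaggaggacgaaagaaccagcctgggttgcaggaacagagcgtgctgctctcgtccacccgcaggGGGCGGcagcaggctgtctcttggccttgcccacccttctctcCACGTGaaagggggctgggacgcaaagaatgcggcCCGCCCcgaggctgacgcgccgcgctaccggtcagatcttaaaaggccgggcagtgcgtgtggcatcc
Fbp1, chr13:62888233-62888532, minus strand: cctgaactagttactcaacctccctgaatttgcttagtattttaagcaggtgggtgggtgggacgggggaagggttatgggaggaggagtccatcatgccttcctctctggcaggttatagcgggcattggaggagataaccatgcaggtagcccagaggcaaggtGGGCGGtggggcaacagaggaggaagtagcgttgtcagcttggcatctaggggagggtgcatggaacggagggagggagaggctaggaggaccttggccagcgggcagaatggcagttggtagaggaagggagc

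The liver window of Pklr held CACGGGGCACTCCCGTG with its first base at -170 from the start. This is a match to CACGNG and CNCGTG with 5 free bases between them, the spaced pair of E-box-like sites of a carbohydrate response element, the binding sequence of ChREBP, the product of Mlxipl. The same pattern occurred in 15 of 32851 RefSeq windows of this length (0.0457%) and in no other window of the 7 genes. The window also held TATAAA, the TATA box, at -31. This pattern was found in 13.6% of windows. For every motif that share counts a match at any position of the window, on either strand. None of the 7 motifs was in the red cell window. In the Pfkfb3 window shown, the E-box CACGTG lay at -53, a motif of 7.15% of windows. GC boxes (GGGCGG, 35.7% of windows) were found at Pfkl, Pfkfb1, Pfkfb3 and Fbp1, where a pair at Pfkl shared a base, and TATAAA also in 1 of 4 Pfkfb1 windows. The windows of Slc2a2 and Gckr held none of the 7 motifs, nor was GTAAACA (a FOXO site), TGACGTCA (a cAMP response element) or TCACNCCAC (a sterol response element) found at any of the 7 genes. These 3 letter patterns occurred in 3.65%, 1.79% and 1.24% of windows. A match is a description of letters, and a missing match says nothing beyond these windows.

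**Figure D4:**
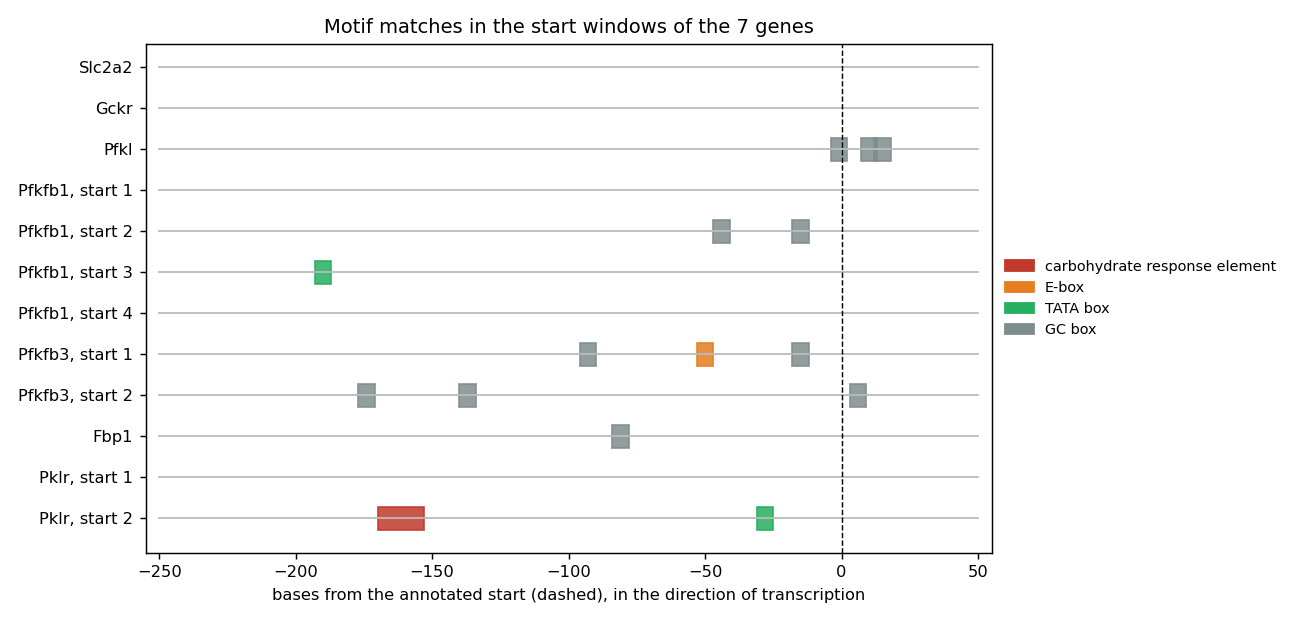
Motif matches in the 12 start windows of the 7 genes, each line a window from 250 bases before to 50 bases after the annotated start (dashed), coloured by motif. The carbohydrate response element pattern at -170 and a TATA box near the start fall together in the downstream Pklr window.

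All 12 genes listed as transcription factors for these promoters, with the coactivator gene Ppargc1a counted in, were measured. Of them 5 were higher, 3 were lower and 4 did not pass, against 26.4% higher and 15.7% lower over all genes tested. The list's median log2 fold change was 0.17, against 0.10 over all genes tested. The largest changes were those of Onecut1, a liver-enriched homeobox factor, at 2.98 ± 0.12 SE (limma adjusted p = 4.8e-06), Srebf1, the lipogenic SREBP factor, at 2.83 ± 0.18 SE (3.2e-05), and Mlxipl at 1.48 ± 0.17 SE (0.00041). Mlx, the partner of ChREBP, and Foxa2 also rose. Foxo1, Ppargc1a and Hnf4a fell by 0.76, 0.77 and 0.32 on the log2 scale (limma adjusted p = 0.0025, 0.0065 and 0.041), the last of them in 12 of 16 settings. Usf1, Usf2, Nr1h3 and Hif1a did not pass.

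Of 10 genes listed as shared enzymes, with Pkm of the pyruvate kinase step among them, 9 were higher and 1 lower. This compares with 26.4% higher and 15.7% lower over all genes tested. The median log2 fold change was 0.46 for the list and 0.10 for all genes tested. With TMM factors 7 of the 10 were higher. Gpi1, which interconverts glucose and fructose 6-phosphates, rose 6.61-fold to 404 ± 79.8 RPKM in refed liver, against 61.1 ± 2.74 RPKM in fasted liver (SD, n = 3 each; log2 fold change 2.69 ± 0.14 SE, limma adjusted p = 1.3e-05). Eno1, an enolase, rose 2.24-fold and Gapdh, the triose dehydrogenase, 2.10-fold (limma adjusted p = 0.00012 and 0.00014). Aldoa, Aldoc, Tpi1, Pgk1, Pgam1 and Pkm were the other higher genes, and Eno3, the muscle enolase, was the lower one, at a log2 fold change of -0.32 (limma adjusted p = 0.033), without a call when any library other than fasted 1 was left out. Aldoc kept its call in 8 of 16 settings. Genes of protein kinase A and phosphatase 2A, which act on the bifunctional enzyme and on pyruvate kinase, were called at about the rate of all genes (42.2%): of 8 measured, 2 were higher, 1 lower and 5 did not pass (Prkar1a, Prkar2a, Ppp2ca, Ppp2cb and Ppp2r1b). Prkacb, a catalytic subunit of the kinase, fell by 0.44 on the log2 scale (limma adjusted p = 0.0037). Prkaca and Ppp2r1a had log2 fold changes of 0.24 and 0.35 (limma adjusted p = 0.033 and 0.017), and these passed in 8 and 11 of 16 settings.

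**Figure D5:**
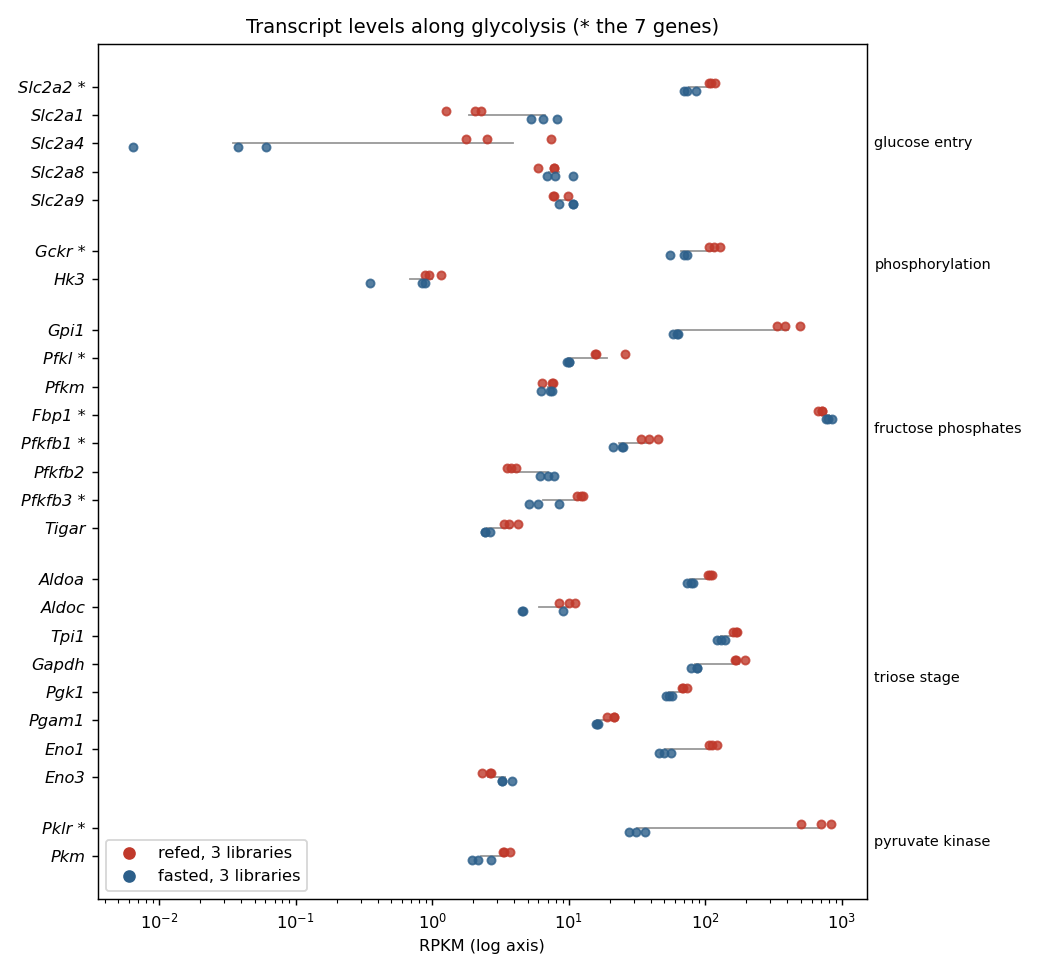
RPKM on a log axis of the measured glycolytic genes in pathway order from top to bottom, each with 3 refed points above 3 fasted points and a line between the group means; the 7 genes are starred. Pklr and Slc2a4 show the widest gaps between groups, and Pfkl lies below Fbp1 in every library.

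Ordered by level in refed liver, Fbp1 and Pklr came first and their ranges overlapped, followed by Gckr and Slc2a2, which also overlapped, then Pfkfb1, Pfkl and Pfkfb3, each apart from its neighbour. In fasted liver the order was Fbp1, Slc2a2, Gckr, Pklr, Pfkfb1, Pfkl and Pfkfb3, with an overlap between Slc2a2 and Gckr alone. Within the refed group, library 7 was the highest for 5 of the 7 genes (Gckr, Pfkl, Pfkfb1, Fbp1 and Pklr) and library 8 the lowest for the same 5. For Slc2a2 refed 7 was the lowest, and for Pfkfb3 refed 8 was the highest. The reads behind 1 RPKM were also highest in refed 7, at 1.14 times the mean of the libraries, and 0.939 in refed 8, and the part of depth in this order was not tested.

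The genes whose log2(RPKM + 1) ran most like each of the 7 were sought among 10279 others with a mean of at least 1 RPKM, by Pearson r over the 6 libraries. The points share the split into refed and fasted, so high values are common, and 1951 genes had an r above 0.9 with Pklr against 334 with Fbp1. Closest to Pklr were Pdhb, a pyruvate dehydrogenase subunit, Hes6 and Inhba (r = 0.9997, 0.9993 and 0.9993). Closest to Gckr were Ppp1r3b, which targets phosphatase to glycogen, Ddx18 and Mkln1 (r = 0.9986, 0.9977 and 0.9966). Slc2a2 ran closest to Zfp330, Scly and Bzw1 (r = 0.9951, 0.9951 and 0.9940), and Pfkl to Vps9d1, Morc4 and Cabp2 (r = 0.9975, 0.9971 and 0.9958). For Pfkfb1 they were Tmem63a, Gamt and Amot (r = 0.9956, 0.9929 and 0.9923), for Pfkfb3 Dnttip2, Psmb4 and Cog6 (r = 0.9969, 0.9967 and 0.9960), and for Fbp1 Plekhg5, Ank3 and Adora1 (r = 0.9915, 0.9897 and 0.9889).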

How the data were processed

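RNA-seq libraries of mouse liver, 3 refed and 3 fasted, were grouped by the sample titles. Whether each library comes from its own mouse is not stated in the labels; p-values thus reflect sample-to-sample spread, possibly technical. Per the submitters' processing notes, FastQC, STAR 2.6.0c, DESeq2 and mm9 were used, with no role given; the counting tool, its strand setting and the library total behind the RPKM are not given in the sources used here, which leaves genes that overlap or lie antisense uncertain. The authors deposited RPKM values for 14659 transcripts, all reaching 1 RPKM in some library. Their other table holds raw counts, log2 fold changes and false discovery rates (adjusted p-values) of DESeq for the genes the authors called, per the file headers; being selected on the outcome, its counts entered no comparison of the groups and served only to describe depth, reads and replicates, and full depth is unknown, so no counting intervals are given.

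Transcripts were named through RefSeq accessions in a GRCm38.p6 gene table (14387), by the symbol in the description (189) or by the symbol column (76), and 7 stayed unnamed. Genes averaging 0.5 RPKM or more were compared by limma 3.58.1 in R 4.3.3 on log2(RPKM + 1), with trended moderated variances, two-sided, and Benjamini-Hochberg adjustment over 10890 genes at 0.05. Fold changes on this scale understate low genes; folds are ratios of group mean RPKM. Ratios and shares had two-sided exact permutation tests over 20 splits, with a smallest p of 0.1. edgeR 4.0.16 gave TMM factors alone. The fit was tested on simulated data. Replicate libraries differed beyond sampling noise (chi-square per degree of freedom from 59.1 to 240). Sequences are from RefSeq, and mm9 and GRCm38.p6 coordinates were not converted. Text names the 7 genes in full, the 3 largest called changes of each list, and 3 like genes each. The members and lists were chosen with earlier results of these data known. Some listed genes and motifs are not reported here, and counts leave them out.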

Additional observations from a re-analysis of the deposited data

How the results depend on the processing

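The rises of Slc2a2, Gckr, Pfkl, Pfkfb1, Pfkfb3 and Pklr kept their direction and their call under all 15 alternative settings. Fbp1 gained a call with library medians centred (log2 fold change -0.29) and with TMM factors (-0.32), where the count of lower genes among the 7 became 1. With median centring, 2184 genes were higher and 2264 lower, against 2877 and 1714 with values as deposited; with 1 library left out, 2159 to 2742 were higher and 1292 to 1640 lower. Among the protein kinase A and phosphatase 2A genes, centring left 1 higher and 2 lower, and quantile normalization and TMM each left 0 higher and 2 lower; leaving out a library gave 0 to 2 higher and 1 to 2 lower. Leaving out a library gave 0 to 1 lower gene among the shared enzymes. The difference in the log2 ratio of Pfkfb3 to Pfkfb1 ranged from -0.038 to 0.38, turning negative without fasted 3. The cause of these changes was not tested. No paired analysis was possible because the titles give the groups no shared replicate number. With 3 libraries a group, ratios and shares could not reach an exact p under 0.1.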

Other observations

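The carbohydrate response element pattern of the Pklr liver window was looked up across all RefSeq windows after the Pklr values were seen. It occurred at 14 genes, of which 6 were tested, Pklr included. Of these 6, 4 were higher in refed liver and 2 did not pass, against 26.4% called higher over all genes tested. Since Pklr prompted the search and is among the 4, the count is a description and not a test. The others that were higher in refed liver were Fam124a, at 21.9 RPKM in refed and 1.62 RPKM in fasted liver on average (log2 fold change 3.10, limma adjusted p = 3.6e-05), Irak1bp1 (0.73, limma adjusted p = 0.0052) and Crybg3 (0.40, limma adjusted p = 0.019). A430005L14Rik and Il4i1b did not pass.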
